A study of Mus musculus with 6 samples.

Results

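The barcodes described here are those of Ly6c2 and Ccr2 myeloid cells in 4T1 mouse breast tumours, 202 of the 6730 barcodes with at least 200 detected genes. They were chosen by their UMIs (unique molecular identifiers, each counting 1 captured messenger RNA). A selected barcode had at least 2 UMIs summed over Ly6c2, Ms4a4c, Ccr2 and Ms4a6c, and at least 1 over the myeloid genes Lyz2, Ctss and Fcgr1. It also had at most 1 UMI of the macrophage genes Arg1 and Mmp12, at most 1 of C1qa, C1qb and C1qc, and at most 1 of the epithelial genes Krt8, Krt18 and Epcam. UMIs of Cd3e, Cd3g, Cd79a and Plvap (lymphoid and endothelial) and of Cxcr2, Hdc and Asprv1 (neutrophil and basophil) had to be 0. These 22 genes chose the barcodes, so their values are given as a description and are not tested.

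Drop-seq, which captures single cells in droplets on barcoded beads, gave 6 libraries from tumours of Balb/c mice, 3 labelled FVIO-MHT and 3 labelled PBS, each taken after 24 hours. 4T1 is a mouse mammary carcinoma line. FVIO-MHT is mild magnetic hyperthermia with ferrimagnetic vortex iron oxide nanorings, given into the tumour at 0.1 mg per cm3 of tumour volume, followed by an alternating field of 365 kHz for 10 min. PBS is the saline control. Every sample carries the same protocol text, and an exposure of PBS tumours to the field is therefore neither stated nor denied. No animals are named, and a p-value here measures only how these libraries vary, which may be technical. Strain, tumour line and time are common to both groups.

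Classical monocytes leave the bone marrow through Ccr2, the receptor of the chemokine Ccl2, and carry the surface antigen Ly6C, which Ly6c2 encodes. Ms4a4c and Ms4a6c encode membrane proteins of monocytes and related myeloid cells. In tumours such monocytes can mature into macrophages, losing Ly6C and gaining genes such as C1qa and Apoe, or into cells that present antigen on MHC class II. They also respond readily to interferon, which induces Isg15, a ubiquitin-like modifier, and Rsad2, which encodes the antiviral protein viperin.

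The libraries held between 678337 and 2207534 UMIs, over 5000 barcodes each. FVIO-MHT replicate 1 stood apart: its selected barcodes numbered 2, and the 12 neutrophil markers summed to 95391 CPM (UMIs scaled to a total of 1000000) in its other barcodes with 200 or more genes. PBS replicates 2 and 3 shared 44 barcode sequences, while every other pair of libraries shared between 0 and 6. Of the selected barcodes, 1 of FVIO-MHT replicate 2 and another of PBS replicate 3 had a sequence that another library also lists. The one in PBS replicate 3 was that library's deepest, with 4496 UMIs or 25.2% of its selected UMIs, and had 430 UMIs in PBS replicate 2, where it was not selected.

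The promoters of Rsad2 and Isg15 are shown because these genes stood highest in FVIO-MHT relative to PBS among the genes with the lowest p, as described further on. The sequences are RefSeq windows of 300 bases on GRCm38.p6 (the mm10 build), 5′ to 3′ on the gene's strand, from 250 bases before to 50 after the start. Capitals mark matches on either strand to GAAA, then NN (any bases), then GAAA, the letters searched for the interferon-stimulated response element. In Rsad2 (chr12:26456403-26456702, minus strand) the 1 match lies on the opposite strand, its first printed base 120 bases before the start. In Isg15 (chr4:156200769-156201068, minus strand) the first printed bases of 3 overlapping matches lie between 66 and 78 bases before the start.
Rsad2: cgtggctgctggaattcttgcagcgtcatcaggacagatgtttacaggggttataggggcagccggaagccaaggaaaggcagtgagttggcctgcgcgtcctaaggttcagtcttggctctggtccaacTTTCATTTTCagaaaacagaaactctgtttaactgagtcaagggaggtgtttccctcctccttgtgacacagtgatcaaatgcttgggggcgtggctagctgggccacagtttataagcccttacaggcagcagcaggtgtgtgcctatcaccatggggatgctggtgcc
Isg15: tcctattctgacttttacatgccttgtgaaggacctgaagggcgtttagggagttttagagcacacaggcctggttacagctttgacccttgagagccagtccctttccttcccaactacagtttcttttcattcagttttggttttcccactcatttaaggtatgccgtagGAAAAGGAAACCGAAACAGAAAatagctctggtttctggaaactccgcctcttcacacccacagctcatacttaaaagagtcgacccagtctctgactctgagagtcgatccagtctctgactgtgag
The same letters occurred in 1131 of 32851 such windows of all genes (3.44%). Of 29 interferon-induced genes in the list used below, 23 had a window, and 15 of these held a match.

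The selected barcodes were unevenly spread over the libraries. They numbered 2, 75 and 78 in FVIO-MHT replicates 1, 2 and 3, and 17, 10 and 20 in PBS replicates 1, 2 and 3. As a share of barcodes with 200 or more genes this was 0.602%, 7.15% and 3.35% with FVIO-MHT and 1.57%, 0.684% and 4.15% with PBS. The groups overlapped, with the highest and the lowest share both in FVIO-MHT. The mean share was 3.70% ± 3.29 (SD, n = 3) against 2.14% ± 1.80 (SD, n = 3), a difference of 1.57 percentage points (2-sided exact permutation test, p = 0.7, where 0.1 is the smallest p that 3 against 3 allows). Among barcodes with a UMI of Lyz2, Ctss or Fcgr1 the shares were 5.26%, 23.9% and 14.7% with FVIO-MHT and 15.04%, 4.37% and 20.2% with PBS. That difference was 1.40 points (2-sided exact permutation test, p = 0.8). Adjusted over these 2 shares by Benjamini-Hochberg, both p-values were 0.8. Without FVIO-MHT replicate 2 the first difference turned to -0.157 and the second to -3.24 points. Without PBS replicate 2 the second was -3.02.

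Most selected barcodes lay close to the threshold. Of the 202, 73 had a rule sum of exactly 2, 55 had 3 and 74 had 4 or more. Another 118 barcodes met every other condition with a sum of 1. A UMI of Krt8, Krt18 or Epcam was present in 30 selected barcodes, 21 of them in FVIO-MHT replicate 3.

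Among the selected barcodes Ly6c2 was found mainly in FVIO-MHT replicates 2 and 3. Being a rule gene, it cannot show what cells these are. Ly6c2 itself gave 241 UMIs over all selected barcodes, 230 of them in those 2 libraries. By library its level in FVIO-MHT replicates 1 to 3 was 0, 2178 and 2969 CPM, and in PBS replicates 1 to 3 it was 106, 153 and 505 CPM. At least 1 Ly6c2 UMI was found in 50 of 75 selected barcodes of FVIO-MHT replicate 2 (66.7%, 54.8 to 77.1% by the 95% Clopper-Pearson method, counting error only) and in 48 of 78 of replicate 3 (61.5%, bounds 49.8 and 72.3%). In PBS it was found in 1 of 17, 1 of 10 and 6 of 20.

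FVIO-MHT replicates 2 and 3 also stood above the PBS libraries after thinning to equal depth. Median depth in FVIO-MHT replicates 2 and 3 was 654 and 378 UMIs per selected barcode, and in the PBS libraries 505, 537 and 549.5. Thinned to 300 UMIs each, 33 of 69 and 33 of 66 selected barcodes in FVIO-MHT replicates 2 and 3 kept a Ly6c2 UMI, against 1 of 17, 1 of 10 and 5 of 19 in PBS, with 12 FVIO-MHT replicate 3 barcodes, 6 of replicate 2 and 1 of PBS replicate 3 too shallow to thin. These are shares of 47.8% and 50% against 5.88%, 10.0% and 26.3%, so replicates 2 and 3 changed places. Ly6c2 is a rule gene, so the shares are given as a description. In barcodes with no UMI of Lyz2, Ctss or Fcgr1 the unthinned share was 3.40% and 4.74% in FVIO-MHT replicates 2 and 3 (median depths 503 and 398 UMIs). In PBS it was 0.724%, 1.22% and 3.13% (485, 859 and 618 UMIs). Thinned to 300 UMIs, these shares were 2.14% and 3.10% against 0.512%, 0.518% and 1.42%.

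PBS barcodes entered through the other rule genes. Ccr2 was at 997 and 1219 CPM in FVIO-MHT replicates 2 and 3 and at 2537, 1381 and 1570 CPM in PBS. Ms4a6c was at 1827 and 2359 CPM against 2537, 1687 and 1906 CPM. Both selected barcodes of FVIO-MHT replicate 1 entered on Ccr2 alone. Neither Ly6c2 nor Ms4a4c had a UMI in 14 of 17, 7 of 10 and 8 of 20 PBS barcodes, against 14 of 75 and 25 of 78 in FVIO-MHT replicates 2 and 3. Fcgr1, the high-affinity IgG receptor, had 0 UMIs in the selected barcodes of FVIO-MHT replicate 1 and PBS replicates 1 and 2. For this reason they are called selected barcodes here, and a comparison of FVIO-MHT with PBS sets mostly Ly6c2-bearing barcodes against mostly Ly6c2-free ones.

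**Figure D1:**
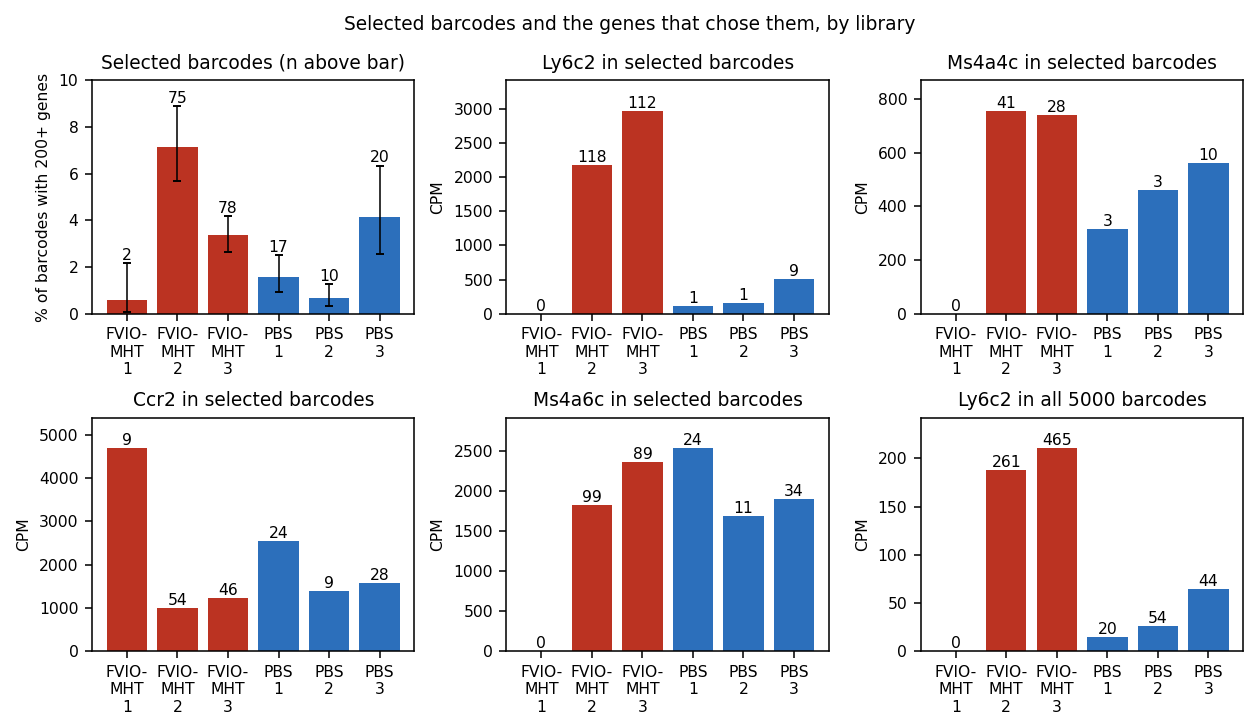
Share of selected barcodes per library (first panel, percent of barcodes with 200 or more genes, 95% Clopper-Pearson bars, number of barcodes above each bar) and CPM of the 4 genes that chose them (next 4 panels, UMIs above each bar), with Ly6c2 over all 5000 barcodes of each library in the last panel. FVIO-MHT libraries are red and PBS libraries blue. Ly6c2 reached 2178 and 2969 CPM in FVIO-MHT replicates 2 and 3 and at most 505 CPM in PBS, while Ccr2 and Ms4a6c were present in both groups.

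Markers of other cell types were measured in the selected barcodes. The 12 neutrophil markers summed to 4614 and 1113 CPM in FVIO-MHT replicates 2 and 3 and to 3700, 153 and 1794 CPM in PBS, with the S100a8 and S100a9 genes that monocytes also express among them. The 10 T and NK cell markers summed to at most 56.1 CPM, and the 10 conventional dendritic cell markers to at most 212 CPM, in the 5 libraries with 10 or more selected barcodes. Flt3 and Zbtb46, which define conventional dendritic cells, were at 0 in FVIO-MHT replicates 2 and 3. The 7 fibroblast markers reached 1845 and 769 CPM in the 2 larger FVIO-MHT libraries, and 0, 0 and 336 CPM in the PBS ones. The 8 macrophage markers, among them Apoe, Mrc1 and Trem2, summed to 2750 and 8562 CPM in FVIO-MHT replicates 2 and 3 and to 1163, 3988 and 3140 CPM in PBS, so replicate 3 was highest and the groups overlapped. The part of these genes in the results below was not tested.

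FVIO-MHT was compared with PBS on UMIs summed over the selected barcodes of each library with at least 10 of them, which left FVIO-MHT replicates 2 and 3 against all 3 PBS libraries. A fall in cells of a kind and less RNA per cell cannot be told apart in such sums. The highest-ranked differences were more Rsad2 and Isg15 and less Hspa1b with FVIO-MHT, but no gene passed the test. Of 373 genes tested by edgeR's quasi-likelihood test, 0 were called (0.0%) at a Benjamini-Hochberg adjusted p under 0.05, and 23 had an unadjusted p under 0.05. DESeq2 called 1 gene, Rsad2 (0.268%). Both FVIO-MHT libraries lay above all PBS libraries for 29 genes (7.77%) and below them for 31 (8.31%). A random order of 2 libraries against 3 also separates genes at shares of this order. A lack of overlap is therefore given below as a description only.

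Rsad2 (chr12:26442746-26456452) was at 830 and 4533 CPM in FVIO-MHT replicates 2 and 3. In PBS replicates 1 to 3 it was at 0, 153 and 280 CPM, from 0, 1 and 5 UMIs. The groups did not overlap, and FVIO-MHT replicate 3 was far above the rest. The mean was 2682 ± 2618 CPM (SD, n = 2) against 145 ± 140 CPM (SD, n = 3), with a log2 fold change of 4.04 ± 0.88 (SE) and an edgeR adjusted p of 0.0740. In FVIO-MHT replicate 3 its 171 UMIs came from 41 of 78 selected barcodes, with at most 15 in any one. All other barcodes with 200 or more genes were at 654 and 375 CPM in FVIO-MHT replicates 2 and 3, and at 124, 42.7 and 90.5 CPM in PBS.

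Isg15 (chr4:156199424-156200818) was at 1975 and 3870 CPM with FVIO-MHT and at 211, 614 and 673 CPM with PBS. Again the groups did not overlap and replicate 3 was highest. The log2 fold change was 2.57 ± 0.58 (SE), with an edgeR adjusted p of 0.0740. Its 146 UMIs in replicate 3 were spread over 37 barcodes. Ifi27l2a, another interferon-induced gene, was at 1329 and 1908 CPM against 740, 460 and 280 CPM (log2 fold change 1.83 ± 0.57, edgeR adjusted p = 0.477).

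Among other interferon genes, Ifit3, Cxcl10 and Ly6a did not pass the filter on low counts. Their totals were 6, 36 and 41 UMIs over both FVIO-MHT libraries tested, beside 1, 15 and 4 over the PBS libraries. Of the 29 interferon-induced genes, 4 passed the filter on low counts and none was called. The filter can favour genes high in 1 group, so the sum over all 29 was also taken. It was 9135 and 16328 CPM with FVIO-MHT and 1479.9, 5522 and 5944 CPM with PBS, with no overlap. In all other barcodes with 200 or more genes the same sum was 6837 and 2563 CPM against 2946, 5199 and 4088 CPM.

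Among genes of monocyte identity that the rule did not use, Plac8, which classical monocytes express strongly, was at 1938 and 1166 CPM with FVIO-MHT and at 423, 920 and 393 CPM with PBS. The libraries did not overlap, but the test was not passed (log2 fold change 1.57 ± 0.57, edgeR adjusted p = 0.567). S100a6, a calcium-binding protein, was at 3396 and 6256 CPM against 2431, 920 and 729 CPM (1.92 ± 0.56, edgeR adjusted p = 0.371). In other barcodes S100a6 was also highest in FVIO-MHT replicate 3, at 14495 CPM. Over this list of 23 genes, 9 were tested and 0 called, with 8 higher and a median log2 fold change of 0.75, beside 0.02 over all 373 genes tested. Here too the filter can favour genes high in 1 group. All 23 genes summed to 19230 and 17733 CPM with FVIO-MHT and to 15962, 9817 and 9364 CPM with PBS. Chil3 had 6 UMIs with FVIO-MHT and 0 with PBS. S100a9 had 49 and 3 and Fn1 55 and 11, all below the filter. S100a8, the partner of S100a9, was at 1772 and 79.5 CPM in FVIO-MHT replicates 2 and 3, and at 1374, 0 and 449 CPM in PBS, so the groups overlapped widely. Rhoa, Lgals1 and Jund completed the 8 lowest p-values among higher genes, and Rhoa and Lgals1 had log2 fold changes of 1.84 and 1.68, Jund being at 978 and 2518 CPM against 634, 614 and 673 CPM.

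Macrophage maturation genes were tested in the same fit. Of 22, 8 were tested and 0 called, with 7 higher and a median log2 fold change of 0.52. The 22 genes, which include the 8 macrophage markers, summed to 8471 and 20675 CPM with FVIO-MHT and to 8457, 8897 and 9252 CPM with PBS. FVIO-MHT replicate 3 stood apart, and replicate 2 lay among the PBS libraries. Apoe, the lipid carrier apolipoprotein E, was at 1292 and 4904 CPM against 211, 1381 and 1402 CPM (log2 fold change 1.68 ± 0.69, edgeR adjusted p = 0.595).

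MHC class II genes, which present antigen to CD4 T cells, were lowest in FVIO-MHT replicate 3, and none was called. H2-Aa (chr17:34282744-34287823), the class II alpha chain, was at 2897 and 875 CPM with FVIO-MHT and at 3171, 5062 and 3813 CPM with PBS. Replicate 2 lay just under the lowest PBS library and replicate 3 well below it. The log2 fold change was -1.04 ± 0.54 (SE), with an edgeR adjusted p of 0.920. In replicate 3 only 6 of 78 selected barcodes had an H2-Aa UMI, and 1 barcode held 17 of the 33 UMIs.

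The partner genes had overlapping groups. H2-Ab1, the beta chain, was at 4651 and 1537 CPM against 5814, 3835 and 7177 CPM. Cd74, the invariant chain, was at 6976 and 2571 CPM against 6025, 9511 and 9420 CPM. H2-DMb1, part of the peptide exchange factor, did not overlap, at 314 and 212 CPM against 846, 614 and 1290 CPM (log2 fold change -1.78 ± 0.62, edgeR adjusted p = 0.567). Of 12 class II genes, 5 were tested and 0 called, all with negative values and a median of -0.93. All 12 summed to 17624 and 5938 CPM with FVIO-MHT and to 19239, 21936 and 25064 CPM with PBS, without overlap. In all other barcodes with 200 or more genes the sum was 4147 and 900.3 CPM against 5043, 5458 and 6293 CPM, the same order between groups. The class I gene H2-K1 gave a value of -0.10 ± 0.59. The 13 class I genes summed to 21555 and 8085 CPM with FVIO-MHT and to 12156, 15800 and 16093 CPM with PBS. Their sum was thus also lowest in FVIO-MHT replicate 3, though the groups overlapped. In all other barcodes with 200 or more genes it was 20219 and 4250 CPM against 17335, 22438 and 22255 CPM.

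Heat shock genes followed single libraries. Hspa1b, an inducible Hsp70 chaperone, was at 0 and 26.5 CPM with FVIO-MHT and at 0, 2454 and 1458 CPM with PBS, so PBS replicate 1 lay with FVIO-MHT. Its fitted log2 fold change of -6.27 ± 1.39 (edgeR adjusted p = 0.0740) rests on 1 UMI with FVIO-MHT and depends on the prior count. Hspa1a, a near-identical copy with which reads can be shared, was at 0 and 186 CPM against 0, 1841 and 1402 CPM. Hsp90aa1 was at 1015 and 2253 CPM against 846, 10431 and 3701 CPM. In other barcodes of the same libraries Hspa1b was at 252 and 141 CPM against 208, 3257 and 3009 CPM, so PBS replicates 2 and 3 stood out there too. All 18 heat shock genes summed to 4632 and 9065 CPM with FVIO-MHT and to 4968, 23777 and 15252 CPM with PBS. Of the 18, 5 were tested and 0 called.

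No inflammatory or iron gene was called. Cxcl1, Cxcl16 and Mt1 were lower with FVIO-MHT without overlap, and are among the 31 of 373 tested genes (8.31%) for which this held. Il1b, the pyrogenic cytokine, was at 1827 and 2200 CPM against 4123, 1841 and 3364 CPM (log2 fold change -0.58 ± 0.48, edgeR adjusted p = 0.993). Tnf had 5 UMIs with FVIO-MHT and 14 with PBS, all 14 in PBS replicate 3, and Nos2 had 4 and 0. Cxcl1, a neutrophil attractant, was at 332 and 106 CPM against 634, 1381 and 897 CPM without overlap (log2 fold change -2.01 ± 0.70, edgeR adjusted p = 0.567). Cxcl16 did not overlap either, at 424 and 239 CPM against 846, 1227 and 1009 CPM. Ccl2, the Ccr2 ligand, had 42 UMIs with FVIO-MHT, 36 of them in replicate 3, and 3 with PBS.

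The ferritin chains Fth1 and Ftl1, which store iron, had log2 fold changes of 0.11 ± 0.44 and 0.20 ± 0.51, both with an edgeR adjusted p of 0.993. Fth1 was at 21703 and 17097 CPM against 27378, 13652 and 15420 CPM. Hmox1, which breaks down haem, had 23 UMIs with FVIO-MHT and 13 with PBS. The metal-binding protein gene Mt1 was lower without overlap, at 591 and 1113 CPM against 1797, 3068 and 1738 CPM, and was not called. Rsrc2 was also among the 8 lowest p-values of the lower genes, with a log2 fold change of -1.89.

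Thbs1, Vegfa, Fos and Jun had log2 fold changes of 0.37, -0.08, 0.75 and -0.31, none larger than 1.5 times its SE. The checkpoint ligand gene Cd274 had 21 UMIs with FVIO-MHT and 7 with PBS.

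The count of calls turned on FVIO-MHT replicate 2. Without it, 19 of 408 genes were called (4.66%), with the lone FVIO-MHT library assumed to vary like the PBS libraries. These included higher Rsad2, Isg15 and S100a6 and lower H2-Aa, H2-Ab1, H2-Eb1 and Cd74. Without replicate 3 the 3 genes called were Hspa1a, Hspa1b and Hsp90aa1, all lower. The 3 were 0.732% of those tested. Without PBS replicate 1, 1 gene was called, Hspa1b (0.174%). With no filter on low counts, 5 of 9162 genes were called (0.0546%): Rsad2, Isg15, S100a6 and Ccl7 higher and Hspa1b lower.

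**Figure D2:**
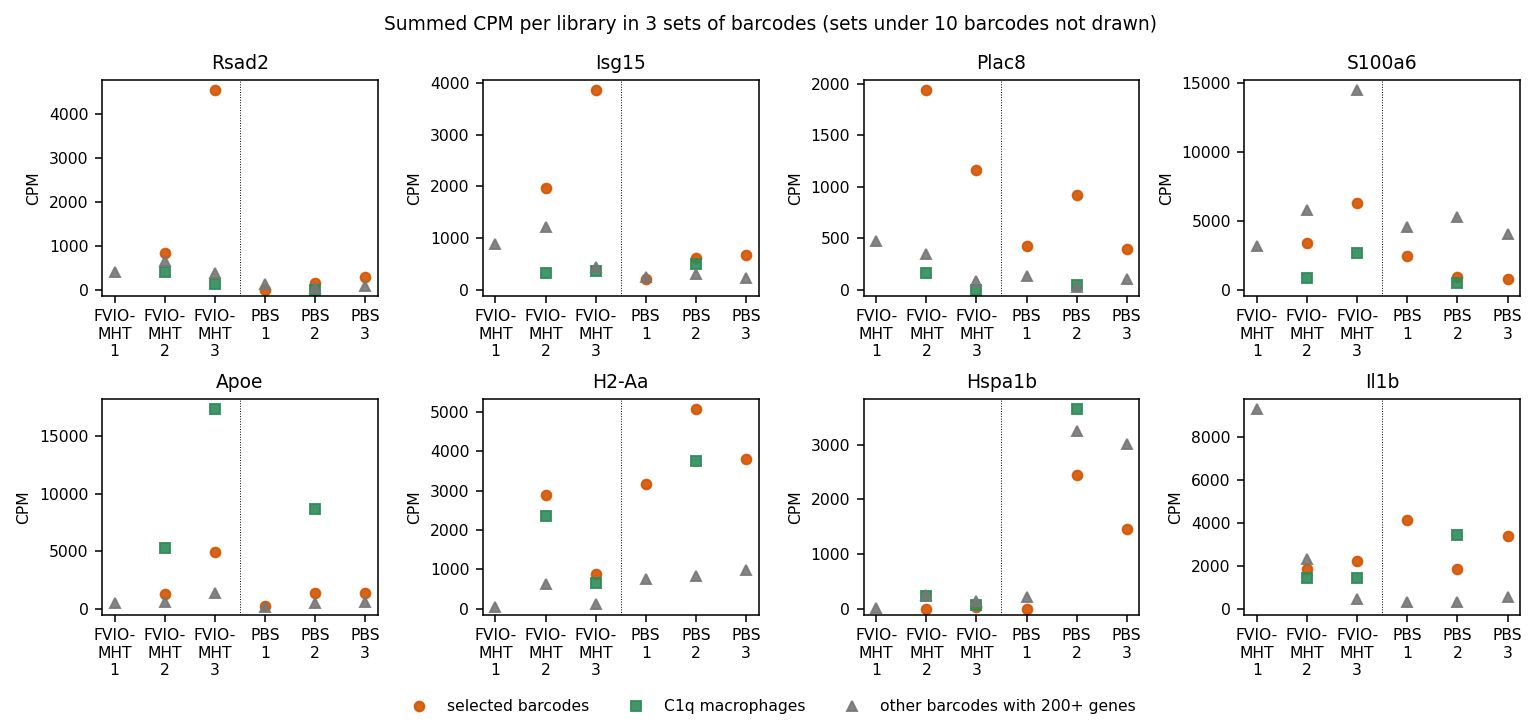
CPM of 8 genes in each library for the selected barcodes (orange circles), C1q macrophages (green squares) and all other barcodes with 200 or more genes (grey triangles), with sets under 10 barcodes not drawn and a dotted line between FVIO-MHT and PBS libraries. Rsad2 and Isg15 reached 4533 and 3870 CPM in the selected barcodes of FVIO-MHT replicate 3, Apoe was higher in C1q macrophages of the 3 libraries drawn, and Hspa1b was high in PBS replicates 2 and 3 in every set drawn.

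A split of the selected barcodes by Ly6c2 showed 2 unlike libraries under FVIO-MHT. This split uses a rule gene and cells of the same library, so it is given as values with no test. In replicate 3 the 48 barcodes with a Ly6c2 UMI had 0 H2-Aa UMIs among 20525, which at 3 counts allows up to 146 CPM, and the 30 without had 33 UMIs or 1918 CPM. Cd74 was at 244 CPM with and 5349 CPM without Ly6c2. These levels rest on few barcodes. Of the 78 selected in replicate 3, 13 had a Cd74 UMI, and 1 barcode held 41 of the 97 UMIs. For H2-Ab1, 11 had a UMI, and 1 barcode held 26 of 58. The interferon genes ran the other way there. Rsad2 was at 6529 CPM in Ly6c2-bearing barcodes and 2151 CPM in the others, and Isg15 at 6139 and 1163 CPM. Summed over 29 genes, the interferon list stood at 23776 and 7441 CPM, and summed over 12 genes the class II list at 585 and 12325 CPM.

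Replicate 2 did not show this pattern. Its 50 Ly6c2-bearing and 25 other barcodes had 2939 and 2796 CPM of H2-Aa and 6944 and 7053 CPM of Cd74. The class II list summed to 17530 and 17855 CPM, and the interferon list to 9779 and 7561 CPM. Plac8 was higher with Ly6c2 in both libraries, at 2133 and 1461 CPM in replicate 2 and at 1608 and 639 CPM in replicate 3. Ly6c1, a close copy of Ly6c2 whose reads can be confused with it, was at 624 and 127 CPM in replicate 2 and at 2972 and 58.1 CPM in replicate 3. In PBS replicate 3, the only control library with more than 1 Ly6c2-bearing barcode, the class II list summed to 7163 CPM in 6 such barcodes and 29640 CPM in the 14 others. The first sum came from 26 UMIs. The 14 others include the barcode of 4496 UMIs whose sequence PBS replicate 2 also lists, among 14204 UMIs in all. In this library single barcodes held 50 of 128 H2-Ab1 UMIs and 23 of 68 H2-Aa UMIs.

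**Figure D3:**
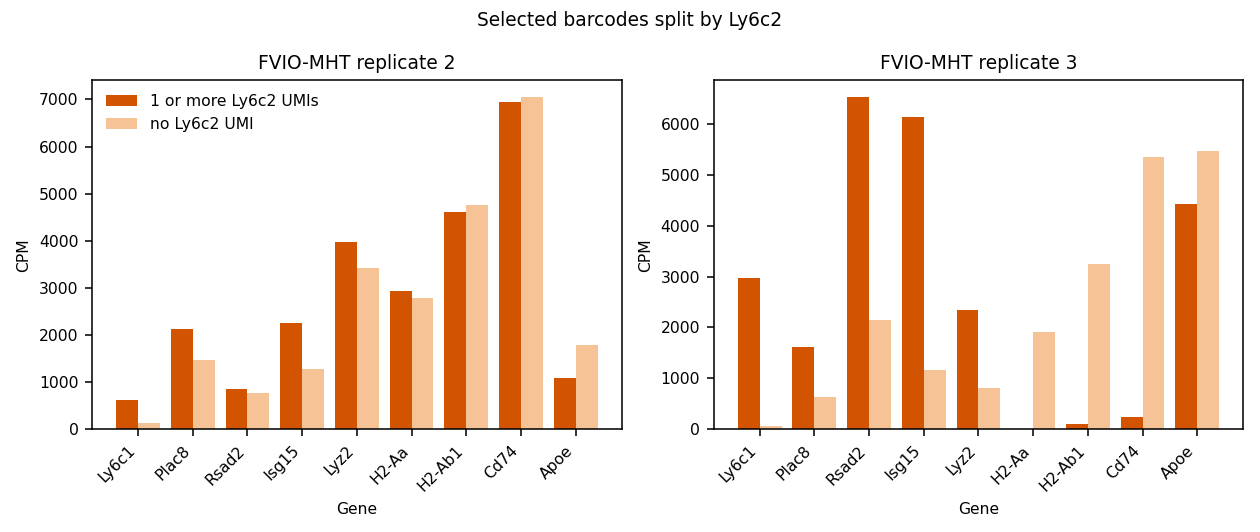
CPM of 9 genes in selected barcodes with 1 or more Ly6c2 UMIs (dark) and with none (light), for FVIO-MHT replicates 2 and 3; bars compare within a gene, not between genes. In replicate 3 Cd74 was at 244 CPM with and 5349 CPM without Ly6c2, while in replicate 2 it was at 6944 and 7053 CPM. A single barcode held 41 of the 97 Cd74 UMIs of replicate 3.

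The selected barcodes were next set against C1q macrophages of the same tumours. These 137 barcodes met the same exclusions with at least 2 UMIs of the complement genes C1qa, C1qb and C1qc and at most 1 of the 4 monocyte rule genes. FVIO-MHT replicates 2 and 3 and PBS replicate 2 held 10 or more of each and were compared with the library as a block. Plac8 was higher and Apoe lower in the selected barcodes, and these were the 2 genes called of 529 tested by edgeR (0.378%). DESeq2 called 4 (0.756%), adding Isg15 and Rsad2. Genes that vary together with C1q or Ly6c2 from cell to cell are not independent of how the barcodes were chosen. In all 3 libraries 90 genes were higher (17.0%) and 75 lower (14.2%).

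Apoe (chr7:19696109-19699188), a gene of mature macrophages, was at 1292, 4904 and 1381 CPM in the selected barcodes of FVIO-MHT replicate 2, FVIO-MHT replicate 3 and PBS replicate 2. In C1q macrophages of the same libraries it was at 5328, 17354 and 8707 CPM. It was lower in 3 of 3 libraries, at a log2 fold change of -2.18 ± 0.25 (SE) and an edgeR adjusted p of 0.00144. Plac8 (chr5:100553725-100572245) was at 1938, 1166 and 920 CPM, against 157, 0 and 48.6 CPM from 2, 0 and 1 UMIs in C1q macrophages. It was higher in 3 of 3 libraries, with a fitted log2 fold change of 4.60 ± 0.67 (SE) and an edgeR adjusted p of 0.00710. Neither call held without FVIO-MHT replicate 2, when 0 of 560 genes were called and 33 had an unadjusted p under 0.05. The log2 fold changes were then -2.18 for Apoe and 5.58 for Plac8, each with an edgeR adjusted p of 0.455. With no filter on low counts Plac8 was called and Apoe was not (-2.06, edgeR adjusted p = 0.998). Without the library block neither was called, at -2.13 for Apoe and 4.67 for Plac8 (edgeR adjusted p = 0.669 and 0.115). Over the settings that gave a value Apoe ran from -2.28 to -1.90 and Plac8 from 3.74 to 5.58. Without PBS replicate 2, 15 of 814 genes were called (1.84%), and Apoe and Plac8 were among them.

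The next genes by p were interferon-induced. Rsad2 was at 830, 4533 and 153 CPM in selected barcodes and at 391.8, 129 and 0 CPM in C1q macrophages. Isg15 was at 1975, 3870 and 614 CPM against 313, 361 and 486 CPM. Ifi27l2a was at 1329, 1908 and 460 CPM against 157, 232 and 292 CPM. Each was higher in 3 of 3 libraries with an edgeR adjusted p of 0.0795, and the log2 fold changes were 3.58, 2.39 and 2.37. In PBS replicate 2 the selected barcodes held only 1, 4 and 3 UMIs of these genes, and C1q macrophages 0, 10 and 6. As 3 counts equal 460 CPM in those selected barcodes, the control library adds little to the 2 FVIO-MHT libraries. Of the 29 interferon-induced genes 7 were tested and 0 called. All 7 had positive values, at a median of 1.13 beside -0.05 over all 529 genes. The filter can favour genes high in 1 cell set, so the sum over all 29 was also taken. It was 9135, 16328 and 5522 CPM in selected barcodes against 5093, 2218 and 4038 CPM in C1q macrophages. Ly6e and Slfn5, 2 more of the 12 lowest p-values among higher genes, had values of 2.10 and 1.72, and Ly6e was lower in PBS replicate 2.

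Plac8 was the only monocyte identity gene called. S100a6 and the surface glycoprotein gene Cd52 were higher in 3 of 3 libraries, at log2 fold changes of 1.30 ± 0.30 and 1.56 ± 0.41, with edgeR adjusted p of 0.106 and 0.184. Itgam, the integrin CD11b, was at 812, 716 and 614 CPM against 548, 490 and 341 CPM, which did not pass the test (edgeR adjusted p = 0.759). The transcription factors Cebpb and Klf4 were at -0.04 ± 0.29 and -0.08 ± 0.50, Fn1 at -0.03 ± 0.51, Cd14 at 0.23 ± 0.34 and Ifitm3 at 0.73 ± 0.45. Of 23 identity genes 9 were tested, with 6 higher, 3 lower and 1 called, at a median of 0.50. All 23 summed to 19230, 17733 and 9817 CPM in selected barcodes against 8619, 8380 and 7735 CPM in C1q macrophages. Other identity genes did not pass the filter on low counts. Clec4e, a receptor that senses dead cells, had 74, 12 and 6 UMIs in the selected barcodes and 2, 3 and 2 in C1q macrophages. Thbs1 had 51, 23 and 0 UMIs against 1, 2 and 0. Hp and Vcan had 12 and 9 UMIs in all and 0 in C1q macrophages. Other untested identity genes went the other way. F13a1 was at 258, 292 and 0 CPM against 313, 438 and 97.3 CPM, lower in 3 of 3 libraries. Ms4a6b was lower in 3 of 3 libraries too, at 295, 212 and 153 CPM against 548, 284 and 195 CPM. Spi1 was higher in 1 of 3.

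Macrophage maturation genes had lower values in the selected barcodes. Of 22, 11 were tested, all 11 with negative values, 1 of them called (Apoe), at a median of -0.85. Mrc1, the mannose receptor, was at 73.8, 212 and 307 CPM against 862, 670 and 827 CPM (log2 fold change -2.32 ± 0.55, edgeR adjusted p = 0.106). The lysosomal genes Psap and Lgmn were lower in 3 of 3 libraries, at -0.97 ± 0.28 and -1.17 ± 0.37, and neither was called. The list summed to 8471, 20675 and 8897 CPM in selected barcodes against 20841, 34321 and 19312 CPM in C1q macrophages. In FVIO-MHT replicate 3 the selected barcodes thus carried about as much of these genes as C1q macrophages of the other 2 libraries. Other barcodes of that library also had the highest Apoe level, at 1343 CPM against at most 576 CPM in the other 5 libraries.

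Cell cycle genes had lower values in the selected barcodes too, without a call. Top2a, which untangles replicated DNA, was at 129, 265 and 0 CPM against 548, 567 and 438 CPM (edgeR adjusted p = 0.374). Of 20 cell cycle genes 5 were tested and 0 called, all 5 with negative values at a median of -0.94. The filter can favour genes high in 1 cell set, so the sum over all 20 was also taken. It was 1772, 3605 and 1994 CPM in selected barcodes against 4936, 5002 and 3746 CPM in C1q macrophages. Among the remaining lowest p-values, Csrnp1, Anxa2, mt-Nd4 and Samhd1 were higher, and Gatm, Sh3bgrl, Atp5e, Mmp13, Tmsb4x, Hsp90b1 and Ctsa were lower, without a call. MHC class II did not separate the 2 cell sets. H2-Aa was at 2897, 875 and 5062 CPM in selected barcodes and at 2351, 645 and 3746 CPM in C1q macrophages (log2 fold change 0.27 ± 0.26, edgeR adjusted p = 0.843), so both sets were low in FVIO-MHT replicate 3. Il1b was at 0.01 ± 0.33.

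**Figure D4:**
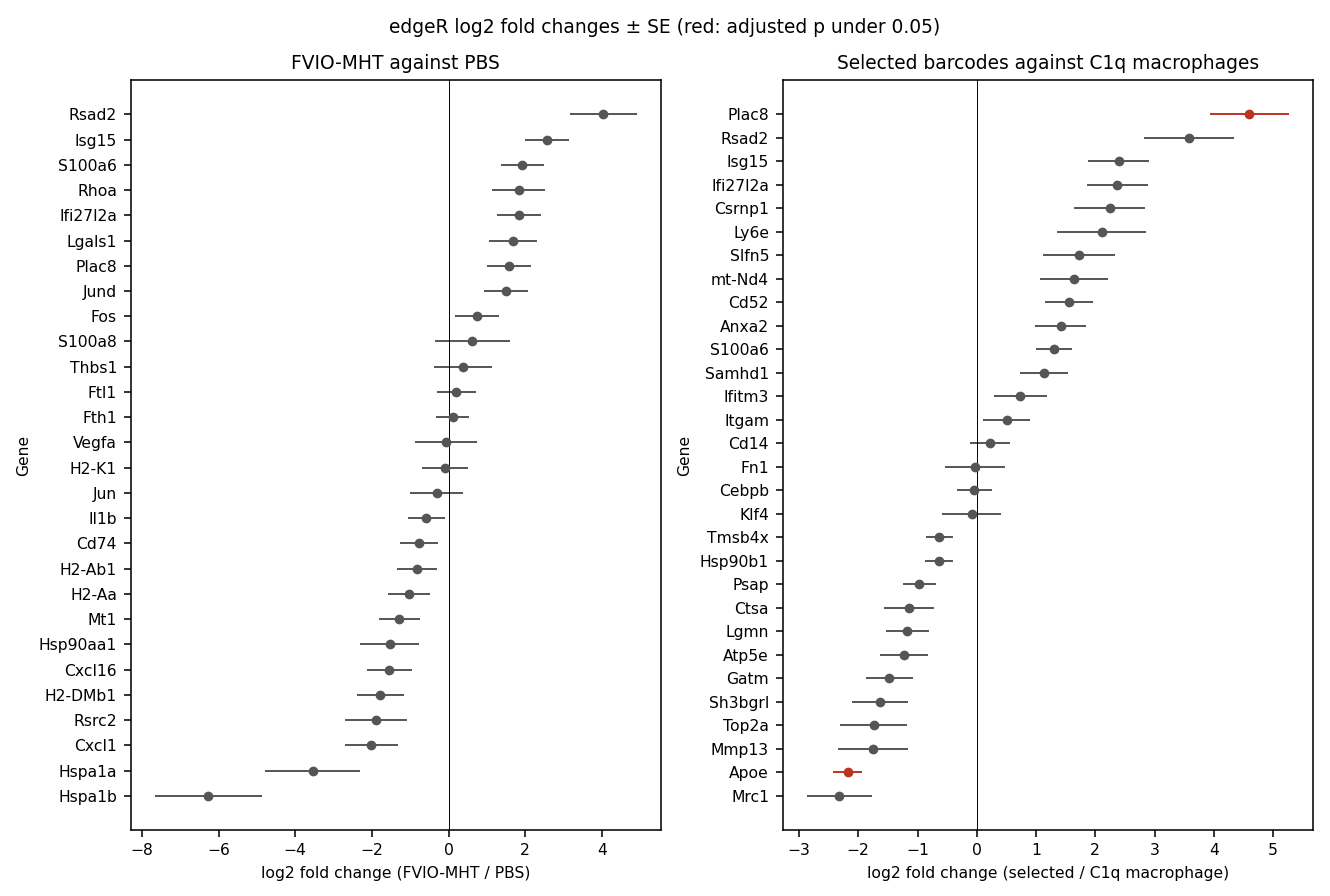
Log2 fold changes with standard errors from edgeR for the named genes that passed the filter on low counts, for FVIO-MHT against PBS within the selected barcodes (left) and for the selected barcodes against C1q macrophages (right). Red marks an adjusted p under 0.05, which held for Plac8 and Apoe on the right and for no gene on the left.

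Whether the FVIO-MHT to PBS difference itself differed between selected barcodes and C1q macrophages was tested on the same 3 libraries, with PBS replicate 2 the lone control. edgeR called 0 of 1120 genes (0.0%), with 53 at an unadjusted p under 0.05, and DESeq2 called 0. A fit of this size has 1 residual degree of freedom. Macrophages with 2 or more UMIs of Arg1 and Mmp12 numbered 46, and PBS replicate 2 was the only library with 10 of both sets, so no test against them was made at that minimum. With at least 3 of each, a minimum chosen after seeing the data, 3 libraries entered and edgeR called 1 of 90 genes. That gene was Ptgs2, which encodes the prostaglandin synthase COX-2, at a log2 fold change of -2.22 ± 0.44 in the selected barcodes.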

How the data were processed

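The authors deposited raw UMI counts for each gene in each barcode. Reads were aligned with STAR 2.7.2b to mm10, per the submitters' processing notes, which are all that is known here of the processing, so strand use and the choice of barcodes are unknown. Of 27998 rows, 65 that repeat a symbol with identical counts were dropped. Doublets were not removed. The rule genes were left out of every test.

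Counts were summed per library over the barcodes of a set, for libraries with at least 10 barcodes in it, and tested with edgeR 4.0.16 (TMM, filterByExpr, quasi-likelihood, Benjamini-Hochberg) in R 4.3.3, with DESeq2 1.42.0 as an alternative. The SE is the log2 fold change divided by the square root of F. CPM are UMIs scaled to a set's total of 1000000, so 3 counts in a library equal between 55.4 and 460 CPM in the selected barcodes. Shares were compared by exact permutation in scipy 1.17.1. The fits were tested on simulated data. Gene positions are GENCODE M21 on GRCm38.

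Named genes for treatment were 29 listed genes plus the 8 lowest p-values each way, and for C1q macrophages the 12 lowest each way plus identity genes. One gene of that list and of the interferon list is not reported here, and the counts and sums of the interferon list leave it out. From lists, examples were chosen by mean level. Clec4e, Thbs1, Hp, Vcan, F13a1, Ms4a6b, Spi1, Ly6c1, H2-Eb1, Ptgs2 and the values by Ly6c2 status were chosen after values were seen. The members, the 15 gene lists and the named genes were chosen with earlier results of these data known.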

Additional observations from a re-analysis of the deposited data

Results flagged for a closer look

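Ly6c2 was also found in barcodes with under 200 genes, which the comparisons leave out. It stood at 139 CPM in such barcodes of FVIO-MHT replicate 2 and at 432 CPM in those of replicate 3, both above the 11.97, 94.8 and 62.7 CPM of PBS replicates 1 to 3. FVIO-MHT replicate 1 was at 0. Over all 5000 barcodes Ly6c2 was at 0, 188 and 211 CPM with FVIO-MHT and at 14.5, 25.7 and 64.9 CPM with PBS.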

How the results depend on the processing

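Depth limits these comparisons: PBS libraries held 6519 to 17834 selected UMIs, against 54186 and 37726 in FVIO-MHT replicates 2 and 3. The cause of each change below was not tested. Leaving out 1 replicate, the share difference ran from -0.157 to 3.12 points and that among myeloid barcodes from -3.24 to 6.07, with -2.32 when thinned to 300 UMIs. Treatment calls numbered 1 by DESeq2, 5 without a filter, 3 with at least 20 members per library, and 0 to 19 with 1 replicate left out. They were 0 with relative log expression in place of TMM within edgeR, a rule sum of 3, or at most 2 UMIs of S100a8 and S100a9. They were also 0 with every library with a member or with shared barcodes left out, both added after seeing the data. A gene minimum of 400 left 3 libraries, with PBS replicate 3 the lone control. At least 20 members per library left the same lone control, and Hspa1b then had a log2 fold change of -6.57. Leaving out either FVIO-MHT replicate left the other alone in its group. With the replicate block 1 gene was called, Hspa1b. Same-numbered libraries had correlations of -0.299 and -0.009, but with 2 FVIO-MHT libraries the deviations mirror each other, so these values cannot show whether a number marks a shared batch. Calls against C1q macrophages numbered 4 by DESeq2, 0 without the library block and 2 without a filter (Plac8 and Ly6c1, not Apoe). They numbered 8 with at least 3 barcodes of each (added later, with Apoe and not Plac8), and 0 to 15 with 1 library left out. At a rule sum of 3 they numbered 14, but PBS replicate 2 kept only 4 selected barcodes and dropped out. That left the 2 FVIO-MHT libraries, and all 14 genes were among the 15 called without PBS replicate 2. Against Arg1 macrophages the later minimum gave 1. The other settings for Arg1 macrophages, and leaving out libraries from the test of the difference between cell sets, could not be run with so few libraries.

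Several named genes near 0 changed sign. For treatment, without a filter Vegfa was 0.45, H2-K1 0.45 and Jun 0.24. At a rule sum of 3 Fth1 was -0.057, H2-K1 0.17 and Jun 0.33. At a gene minimum of 400 Ftl1 was -0.094, and with at least 20 members Ftl1 was -0.27 and Vegfa 0.14. With the replicate block Ftl1 was -0.092 and Vegfa 0.028. With S100a8 and S100a9 limited Vegfa was 0.12 and H2-K1 0.0098, and with every library Fth1 was -0.072. Leaving out 1 replicate gave ranges of -0.049 to 0.45 for Fth1, -0.30 to 0.57 for Ftl1, -0.018 to 1.45 for Thbs1, -0.18 to 0.22 for Vegfa, -1.23 to 0.56 for H2-K1, -2.77 to 1.70 for S100a8 and -1.27 to 0.28 for Jun. Against C1q macrophages DESeq2 gave 0.10 for Fn1 and 0.0099 for Cebpb, no filter 0.13, 0.12 and 0.10 for Fn1, Cebpb and Klf4, and a rule sum of 3 gave 0.11 for Fn1 and 0.16 for Klf4. Cebpb was 0.10 when thinned and 0.16 with at least 3 barcodes of each. Leaving out 1 library gave -0.41 to 0.32 for Fn1, -0.18 to 0.18 for Cebpb and -0.23 to 0.19 for Klf4.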
